A study of Mus musculus with 47 samples.

Results

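Anpep, Ap1m1, Atxn2, Car5b, Dixdc1, Emc3 and Enho are 7 genes whose daily course of expression in mouse muscle stem cells differed most clearly between a control and a high-fat diet. They were chosen by that difference. Among 10258 genes tested, a 24 h cosine curve was fitted to the high-fat minus control differences, and genes were ranked by the p-value of that curve. The 7 genes held ranks 4 to 10, with Benjamini-Hochberg adjusted p-values from limma between 0.00828 and 0.0105. These values made the choice and are given as a description only. In all, 216 genes (2.11%) passed the adjusted threshold of 0.05. The gene of rank 10, Ap1m1, had a difference curve of 0.31 ± 0.06 (SE) on the log2 scale, and the gene of rank 11, Deptor, one of 0.28 ± 0.05. Rank 12, Carns1, had 0.60 ± 0.11. The ranks above were held by Mag, Xpo1 and Ezh1 (0.44 ± 0.07 for Ezh1 at rank 3). The array carries 18 probe sets for the 7 genes among 45141, and for each gene the probe set with the highest mean was used unless another is named.

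The cells were satellite cells, which lie under the basal lamina of muscle fibres and rebuild them after injury, from wild type female mice of the strain C57B6/J. Mice were fed a control or a high-fat diet without restriction from 8 weeks of age for 7 weeks, and RNA was taken at 15 weeks. They were killed at ZT0, ZT4, ZT8, ZT12, ZT16 or ZT20, where ZT is zeitgeber time in hours and ZT0 is by convention lights on. There were 24 control and 23 high-fat mice with 1 array each, 4 per diet and time except for 3 at high-fat ZT16. The mice of both diets at a time were collected on 1 day, so time of day and collection day cannot be told apart within a diet, while a difference between the diets at a time lies within a day. The labels call the mice of a group biological replicates, and p-values rest on the spread between these mice. For the rhythm difference, that spread also includes the diet by time differences that a 24 h curve leaves over.

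A circadian clock in nearly every cell drives daily waves of transcription through E-boxes, D-boxes and ROR elements in gene promoters, and feeding time and diet are known to shift which genes follow it. In muscle stem cells such rhythms have been tied to quiescence, metabolism and stress handling. A rhythm can differ between 2 conditions in amplitude, which is how far the fitted peak stands over the fitted mean, and in the time of the peak. Amplitudes below are in log2 units and peak times in hours after ZT0.

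Promoter sequence was given for 5 of the 7 genes (RefSeq, build GRCm38.p6), with 7 start sites between them. Enho and Ap1m1 have no entry in that table. In the 250 bases before each start, both strands were searched for the E-box CACGTG, bound by the clock activators, the D-box TTATGNAA, bound by the PAR bZIP factors, and AGGTCA, the half-site within the ROR and REV-ERB element. The only match was an E-box 152 bases before the first start site of Atxn2. Of 32851 promoter windows of that length, 6.02% hold the E-box, 3.07% the D-box and 14% the half-site. The Atxn2 window and that of Emc3, which holds none of these letters, are printed because these genes had the most alike diet differences of the 7 (given below). They read 5′ to 3′ towards the start, with the E-box in capitals. The first lies at chr5:121711359-121711608 on the plus strand and the other at chr6:113531639-113531888 on the minus strand.
Atxn2: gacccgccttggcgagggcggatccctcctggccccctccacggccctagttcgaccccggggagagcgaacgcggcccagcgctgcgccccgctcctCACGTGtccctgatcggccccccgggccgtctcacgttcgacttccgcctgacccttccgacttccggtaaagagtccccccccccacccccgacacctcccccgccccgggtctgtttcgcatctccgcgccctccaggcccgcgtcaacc
Emc3: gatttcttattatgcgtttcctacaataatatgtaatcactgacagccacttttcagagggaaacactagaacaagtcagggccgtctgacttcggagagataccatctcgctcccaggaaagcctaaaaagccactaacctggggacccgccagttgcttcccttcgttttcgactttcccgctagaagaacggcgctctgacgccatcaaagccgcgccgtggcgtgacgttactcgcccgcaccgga
A match describes the sequence and is not a binding site. No match says only that these letters are not in the window.

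The stem cell label was checked against 10 satellite cell markers. All 10 lay above the level used to keep genes (5.80 on the log2 scale), and Pax7, the defining transcription factor, had a mean of 10.92. The mean of the list lay between 10.03 and 10.53 in every mouse. Its high-fat minus control difference was largest at ZT12, with 0.17. Several markers of other cells were high too. Acta2, Myh11 and Rgs5 of smooth muscle and pericytes had means of 10.93, 10.64 and 10.07, and the fibroblast genes Dcn, Col3a1 and Dpt had 10.21, 11.31 and 11.38. Lum and Pi16, from the same list as these fibroblast genes, lay under the level used to keep genes, with 5.07 and 5.49. The defining markers Pdgfra of fibro-adipogenic cells and Ptprc of immune cells were low, with 4.37 and 3.85. Of 8 immune genes measured, 2 lay above the level used to keep genes, Cd68 with 8.63 and Cd79a with 7.54. Of 9 mature myofibre genes 7 lay above it, the highest being Actn3 with 7.30. Among those 7 only Acta1, with 6.53, passed for the rhythm difference (limma adjusted p = 0.0432), against 2.11% of all genes. All 4 measured Schwann cell genes lay above that level, among them Pmp22 with 10.53, Mbp with 9.22 and Mag with 6.14. Control ZT20 replicate 2 stood apart with an endothelial list mean of 7.78, while the next highest mouse had 6.05. Without that mouse the difference curves of the 7 genes lay between 0.22 and 0.70, against 0.22 to 0.69 with it. In such bulk RNA, fewer cells of a type and less RNA per cell cannot be told apart.

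Of the 7 genes, 6 had the larger amplitude on the high-fat diet, the exception being Ap1m1. Among the other 209 genes past the threshold, 132 (63.2%) did, and among all genes tested 56%. Genes past the threshold with the larger high-fat amplitude made up 1.35% of those tested and genes with the larger control amplitude 0.76%. In 6 of the 7 genes the peaks on the diets lay more than 6 h apart, with Dixdc1 at 5.72 h. Such a gap was seen in 75.1% of the other 209 genes and in 32.4% of all. These counts follow from the choice of the genes and no test was made of them. The 7 genes fell into a larger and a smaller group by the time at which the high-fat level stood highest over the control level. In Atxn2, Car5b, Enho, Emc3 and Ap1m1 the difference curve peaked between 4 and 8 h, and in Anpep and Dixdc1 between 12 and 16 h. Of the 216 genes past the threshold, 47 (21.8%) peaked in the former window and 62 (28.7%) in the latter. Over all genes tested the shares were 19.9% and 18.5%.

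**Figure D1:**
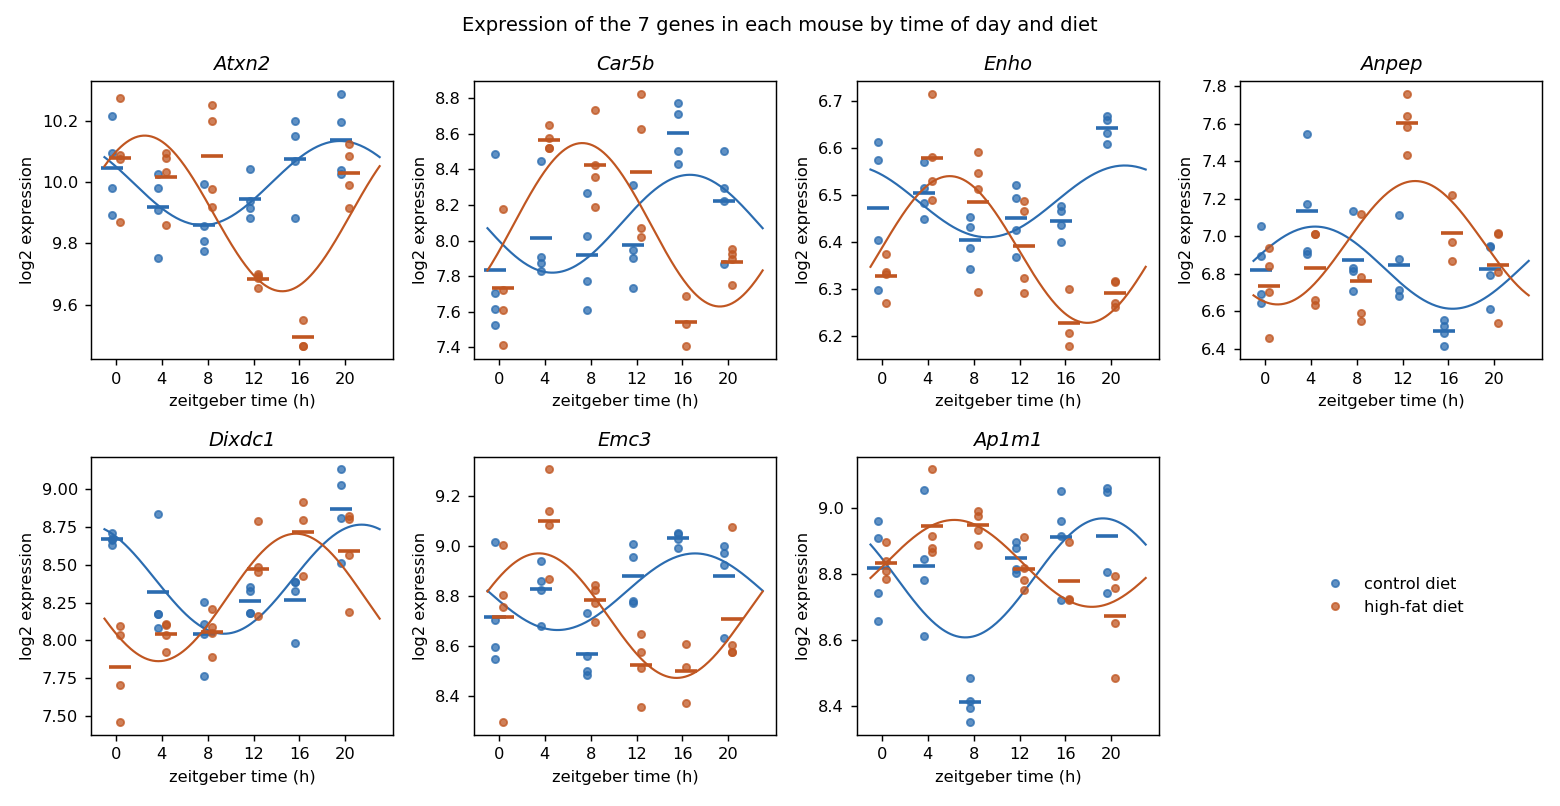
Log2 expression of each of the 7 genes in every mouse against zeitgeber time in hours, control and high-fat diet. Group means are dashes, and the lines are the fitted 24 h curves. At ZT16 the 3 high-fat mice lie outside the range of the control mice in every gene but Ap1m1, below it in Atxn2, Car5b, Enho and Emc3 and above it in Anpep and Dixdc1.

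**Figure D2:**
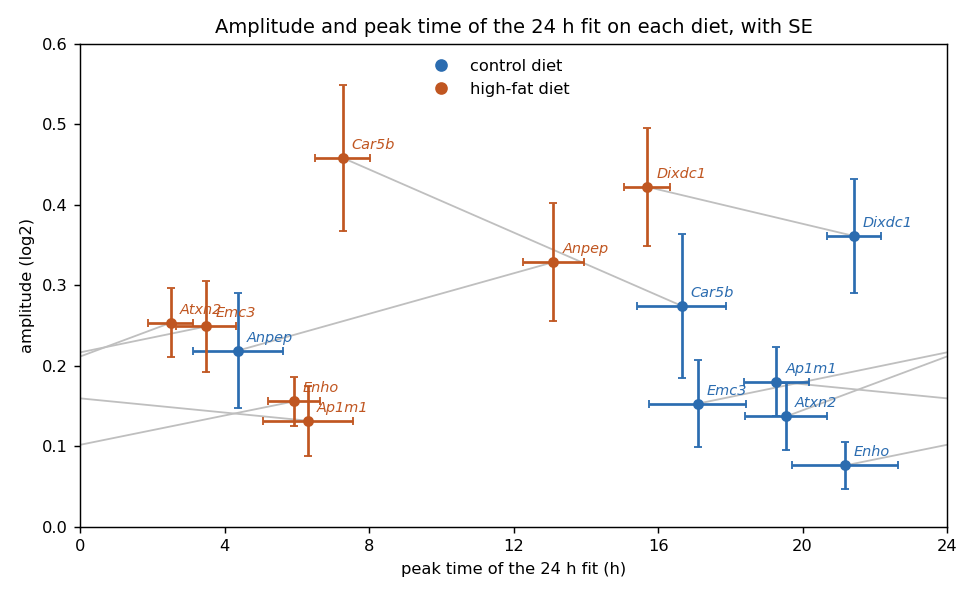
Fitted peak time in hours and amplitude in log2 units of each gene for either diet, with standard errors. The amplitude is larger on the high-fat diet in 6 of 7 genes, and Ap1m1 has 0.18 (control) and 0.13 (high fat).

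Atxn2 encodes ataxin-2, an RNA-binding protein that works with the poly(A)-binding protein, gathers in stress granules and, in flies, supports translation of the clock gene period. On the control diet its mean level was 10.05 ± 0.14 (SD, n = 4) at ZT0, 9.92 ± 0.12 at ZT4, 9.86 ± 0.10 at ZT8, 9.95 ± 0.07 at ZT12, 10.08 ± 0.14 at ZT16 and 10.14 ± 0.13 at ZT20. These means spanned 0.28, and none of the 5 steps between neighbours in their order exceeded the SD within groups of 0.12. On the high-fat diet the means were 10.08 ± 0.17 at ZT0, 10.02 ± 0.11 at ZT4, 10.09 ± 0.16 at ZT8, 9.68 ± 0.02 at ZT12, 9.49 ± 0.05 at ZT16 (n = 3) and 10.03 ± 0.09 at ZT20. The low times were thus ZT12 and ZT16, which differed from each other and from the other 4 times by more than that SD. At ZT16 the high-fat mice had 9.46, 9.47 and 9.55 and the control mice 9.88, 10.07, 10.15 and 10.20. Every high-fat mouse lay below every control mouse, with a difference of -0.58 ± 0.09 (SE), or 0.668-fold. At ZT12 the high-fat mice had 9.66, 9.69, 9.69 and 9.70 and the control mice 9.88, 9.92, 9.94 and 10.04, again without overlap (-0.26 ± 0.08). At ZT8 the high-fat mean was higher by 0.23 ± 0.08 and the groups overlapped. In the cosine fits the control amplitude was 0.14 ± 0.04 with a peak at 19.5 ± 1.15 h, and the high-fat amplitude 0.25 ± 0.04 with a peak at 2.51 ± 0.624 h. The difference curve had a size of 0.32 ± 0.06 and was highest at 4.15 h.

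Atxn2 has 5 probe sets. That used is 1438143_PM_s_at, whose suffix marks probes that can match more than 1 transcript. The probe set 1460653_PM_at gave a curve of nearly the same size, 0.31 ± 0.09 with a peak at 5.58 h, but with the larger amplitude on the control diet (0.21 ± 0.07 against 0.13 ± 0.07). The probe sets 1438144_PM_x_at and 1419866_PM_s_at gave 0.18 ± 0.07 (3.96 h) and 0.16 ± 0.09 (4.68 h). The fifth, 1459363_PM_at, gave 0.05 ± 0.08. So 3 of the 4 other probe sets peaked within 3 h of the one used, and the size ran from 0.05 to 0.31. Among 19 other genes of ataxin-2 and stress granule proteins tested, 0 passed for the rhythm difference in limma, with 2 at an unadjusted p under 0.05. Over all genes tested 18.9% had such an unadjusted p, which is the background for this count in each gene list below. Usp10, a deubiquitinase bound by G3BP proteins, came first with a curve of 0.20 ± 0.06 (adjusted p = 0.140). Averaged over the day, 8 of the 19 fell on the high-fat diet and 0 rose, such as Usp10 by -0.16 ± 0.04 (adjusted p = 0.0106) and Caprin1, a partner of G3BP1, by -0.15 ± 0.03 (adjusted p = 0.00137). Over all genes tested 6.8% fell and 4.7% rose, which is the background for such counts in each gene list below.

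Car5b and Enho act in fuel handling. Car5b encodes carbonic anhydrase VB of the mitochondrial matrix, which supplies bicarbonate to carboxylating enzymes, and it had the largest curve of the 7 genes. Its control means were 7.83 ± 0.44 (SD, n = 4) at ZT0, 8.01 ± 0.29 at ZT4, 7.92 ± 0.29 at ZT8, 7.97 ± 0.24 at ZT12, 8.60 ± 0.16 at ZT16 and 8.22 ± 0.27 at ZT20. The control level was highest at ZT16, the only step in the order above the SD within groups of 0.27. On the high-fat diet ZT16 was the lowest time. The means there were 7.73 ± 0.32 at ZT0, 8.56 ± 0.06 at ZT4, 8.42 ± 0.23 at ZT8, 8.39 ± 0.40 at ZT12, 7.54 ± 0.14 at ZT16 (n = 3) and 7.88 ± 0.09 at ZT20. The times ZT4, ZT8 and ZT12 stood above ZT20, ZT0 and ZT16, with a step of 0.50 between these sets. At ZT16 the high-fat mice had 7.41, 7.53 and 7.69 and the control mice 8.43, 8.50, 8.71 and 8.77. The groups did not overlap, and the difference was -1.06 ± 0.20 (SE), or 0.479-fold. At ZT4 the order was the opposite, with 8.52, 8.52, 8.57 and 8.65 in high-fat and 7.83, 7.87, 7.91 and 8.45 in control mice (0.55 ± 0.19, 1.46-fold). At ZT8 and ZT12 the high-fat means were higher by 0.51 ± 0.19 and 0.41 ± 0.19 with overlap. The control amplitude was 0.27 ± 0.09 with a peak at 16.6 ± 1.24 h, and the high-fat amplitude 0.46 ± 0.09 with a peak at 7.26 ± 0.763 h. The resulting difference curve, of 0.69 ± 0.12, was highest at 6.30 h.

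The other Car5b probe set, 1447928_PM_at, with a lower mean of 6.42 against 8.10, had a curve of 0.20 ± 0.11 that was highest at 7.67 h. Its control peak was at 2.54 h and its high-fat peak at 6.02 h, so the gap of 9.39 h seen in the probe set used was not found there. Of 8 other carbonic anhydrase genes tested, 0 passed for the rhythm difference (1 at an unadjusted p under 0.05). That was Car12, a membrane-bound form, with a curve of 0.70 ± 0.26 (adjusted p = 0.241). Of 17 genes of pyruvate entry and carboxylation 0 passed (6 at an unadjusted p under 0.05). Closest was Mccc2, a subunit of the biotin-dependent methylcrotonyl-CoA carboxylase, with 0.32 ± 0.08 (adjusted p = 0.0598). Averaged over the day, 4 of these 17 fell, including Pcca, a subunit of propionyl-CoA carboxylase, by -0.28 ± 0.05 (adjusted p = 0.000101). Pdk4, the kinase that inhibits pyruvate dehydrogenase, rose by 0.19 ± 0.04 (adjusted p = 0.00266).

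Enho encodes the precursor of adropin, a secreted peptide tied to energy balance. Its level was low on this array, with a mean of 6.44, and its difference curve was the smallest of the 7. The control means were 6.47 ± 0.15 (SD, n = 4) at ZT0, 6.50 ± 0.05 at ZT4, 6.40 ± 0.05 at ZT8, 6.45 ± 0.07 at ZT12, 6.44 ± 0.03 at ZT16 and 6.64 ± 0.03 at ZT20. Only ZT20 stood above the next time by more than the SD within groups of 0.08. The high-fat means were 6.33 ± 0.04 at ZT0, 6.58 ± 0.10 at ZT4, 6.49 ± 0.13 at ZT8, 6.39 ± 0.10 at ZT12, 6.23 ± 0.06 at ZT16 (n = 3) and 6.29 ± 0.03 at ZT20. At ZT20 the high-fat mice had 6.26, 6.27, 6.32 and 6.32 and the control mice 6.61, 6.63, 6.66 and 6.67. These groups lay apart with little spread, by -0.35 ± 0.07 (SE), or 0.785-fold. At ZT16 the high-fat mice were at 6.18, 6.21 and 6.30, all below the control mice at 6.40, 6.44, 6.47 and 6.48 (-0.22 ± 0.07). The control amplitude was 0.08 ± 0.03 with a peak at 21.2 ± 1.47 h and the high-fat amplitude 0.16 ± 0.03 with a peak at 5.91 ± 0.725 h. Their difference curve was 0.22 ± 0.04 in size and highest at 6.90 h. Of the other 3 Enho probe sets only 1428739_PM_at lay above the level used to keep genes. It gave a curve of 0.09 ± 0.06 that was highest at 13.0 h, far from that of the probe set used. The other 2, with means of 5.19 and 4.91, gave 0.04 ± 0.03 (16.7 h) and 0.14 ± 0.04 (8.72 h).

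Anpep and Dixdc1 stood highest over the control level at ZT12 and ZT16, respectively. Anpep encodes aminopeptidase N, also known as CD13, a peptide-cleaving enzyme of the cell surface that many cell types carry, fibroblasts and myeloid cells among them. Its control means were 6.82 ± 0.19 (SD, n = 4) at ZT0, 7.14 ± 0.30 at ZT4, 6.87 ± 0.18 at ZT8, 6.85 ± 0.20 at ZT12, 6.49 ± 0.06 at ZT16 and 6.83 ± 0.16 at ZT20. The low at ZT16 and the high at ZT4 stood off from their neighbours by more than the SD within groups of 0.20. The high-fat means were 6.74 ± 0.21 at ZT0, 6.83 ± 0.21 at ZT4, 6.76 ± 0.26 at ZT8, 7.60 ± 0.14 at ZT12, 7.02 ± 0.18 at ZT16 (n = 3) and 6.85 ± 0.23 at ZT20. Here ZT12 alone stood out, by 0.58 over the next time. At ZT12 the high-fat mice had 7.43, 7.58, 7.64 and 7.76 and the control mice 6.68, 6.71, 6.88 and 7.11. The high-fat group lay wholly above, by 0.76 ± 0.14 (SE), or 1.69-fold. At ZT16 the high-fat mice had 6.87, 6.97 and 7.22 and the control mice 6.41, 6.49, 6.52 and 6.56, again without overlap (0.53 ± 0.15, 1.44-fold). The control amplitude was 0.22 ± 0.07 with a peak at 4.37 ± 1.25 h and the high-fat amplitude 0.33 ± 0.07 with a peak at 13.1 ± 0.848 h. The difference curve had a size of 0.49 ± 0.09 and was highest at 14.3 h. The array holds 1 probe set for the gene.

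Lists of markers of other cells were set beside Anpep by time. The fibro-adipogenic and fibroblast list had 5 of its 8 measured genes above the level used to keep genes. Its mean at ZT12 lay between 8.21 and 8.45 in high-fat and between 7.99 and 8.07 in control mice, a difference of 0.28. At ZT16 the difference was 0.16. The Schwann cell list (4 of 4 measured genes above that level) was higher by 0.56 at ZT12 and by 0.15 at ZT16, with high-fat mice between 8.57 and 9.11 and control mice between 8.18 and 8.40 at ZT12. The immune list (2 of 8 above) differed by 0.01 at ZT12 and 0.05 at ZT16. At ZT0 and ZT8 the fibro-adipogenic list was higher on the high-fat diet by 0.23 and 0.21 and the Schwann cell list by 0.08 and 0.23, while Anpep was at -0.09 ± 0.14 and -0.11 ± 0.14. At ZT4 the fibro-adipogenic list, the Schwann cell list and Anpep were all lower, with -0.07, -0.03 and -0.31 ± 0.14. At ZT20 they were at -0.12, 0.13 and 0.02 ± 0.14 in that order. Mag of the Schwann cell list, rank 1 for the rhythm difference, had peaks at 3.79 h (control) and 12.9 h (high-fat). Its difference curve was highest at 13.6 h. Of the 4 genes of that list only Mag passed the threshold, against 2.11% of all genes. The part of other cells in the Anpep values was not tested. Of 4 other aminopeptidases of the M1 family tested, 0 passed for the rhythm difference (0 at an unadjusted p under 0.05). Npepps, the cytosolic puromycin-sensitive aminopeptidase, fell on average by -0.17 ± 0.03 (adjusted p = 0.000442).

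Dixdc1 encodes a DIX domain protein that binds Dishevelled and Axin in the Wnt pathway. It had the largest control amplitude of the 7 genes, and its high-fat peak came earlier rather than in the opposite part of the day. The control means were 8.67 ± 0.03 (SD, n = 4) at ZT0, 8.32 ± 0.35 at ZT4, 8.04 ± 0.21 at ZT8, 8.26 ± 0.09 at ZT12, 8.27 ± 0.20 at ZT16 and 8.87 ± 0.27 at ZT20. The high-fat means were 7.82 ± 0.30 at ZT0, 8.04 ± 0.09 at ZT4, 8.06 ± 0.13 at ZT8, 8.47 ± 0.26 at ZT12, 8.72 ± 0.25 at ZT16 (n = 3) and 8.60 ± 0.29 at ZT20. ZT0 was thus among the highest control times and was the lowest high-fat time. At ZT0 the high-fat mice had 7.46, 7.70, 8.03 and 8.09 and the control mice 8.63, 8.67, 8.67 and 8.71. The groups did not overlap, and the difference was -0.85 ± 0.16 (SE), or 0.556-fold. At ZT16 the high-fat mice had 8.43, 8.80 and 8.92 and the control mice 7.98, 8.33, 8.39 and 8.39 (0.44 ± 0.17, 1.36-fold). Control amplitude was 0.36 ± 0.07 with a peak at 21.4 ± 0.744 h, and high-fat amplitude 0.42 ± 0.07 with a peak at 15.7 ± 0.637 h. Its difference curve, of 0.53 ± 0.10, was highest at 12.8 h.

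Dixdc1 has 4 probe sets. Next to 1444395_PM_at, used here, 1443957_PM_at had nearly the same mean (8.26 against 8.34), a control peak at 20.5 h, a high-fat peak at 14.6 h and a curve of 0.28 ± 0.07 that was highest at 12.6 h. The probe set 1435207_PM_at gave larger amplitudes, 0.40 ± 0.11 and 0.58 ± 0.11, with peaks closer together, at 19.0 and 16.9 h, and a curve of 0.31 ± 0.16 (14.2 h). In all 3 the high-fat peak preceded the control peak. The fourth, 1425256_PM_a_at, had a mean of 4.14, near the low end of the array, and a curve of 0.05 ± 0.06. Of 19 other Wnt pathway genes tested, 0 passed for the rhythm difference (3 at an unadjusted p under 0.05). Closest was the receptor gene Fzd7 with 0.41 ± 0.12 (adjusted p = 0.0966), whose product is a Wnt receptor of satellite cells. The co-receptor gene Lrp5 rose on average by 0.17 ± 0.05 (adjusted p = 0.0212). For the diet by time differences beyond a 24 h curve, described below, 3 of the 19 passed in limma, against 6.34% of all genes. They were the Dishevelled gene Dvl2 (adjusted p = 0.00141), the receptor gene Fzd4 (adjusted p = 0.00245) and the co-receptor gene Lrp6 (adjusted p = 0.0193).

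Emc3 and Ap1m1 serve membrane proteins. Emc3 encodes a subunit of the endoplasmic reticulum membrane protein complex, which inserts membrane-spanning segments into the lipid bilayer. The control means were 8.72 ± 0.21 (SD, n = 4) at ZT0, 8.83 ± 0.11 at ZT4, 8.57 ± 0.11 at ZT8, 8.88 ± 0.12 at ZT12, 9.03 ± 0.03 at ZT16 and 8.88 ± 0.17 at ZT20. No step between neighbours in that order exceeded the SD within groups of 0.17. The high-fat means were 8.72 ± 0.30 at ZT0, 9.10 ± 0.18 at ZT4, 8.78 ± 0.07 at ZT8, 8.52 ± 0.12 at ZT12, 8.50 ± 0.12 at ZT16 (n = 3) and 8.71 ± 0.24 at ZT20. The highest control time, ZT16, was the lowest high-fat time. There the high-fat mice had 8.37, 8.52 and 8.61 and the control mice 8.99, 9.03, 9.05 and 9.05, with a difference of -0.53 ± 0.13 (SE), or 0.692-fold. At ZT12 the high-fat mice had 8.36, 8.51, 8.58 and 8.65, all below the control mice at 8.77, 8.78, 8.96 and 9.01 (-0.35 ± 0.12). The control amplitude was 0.15 ± 0.05 with a peak at 17.1 ± 1.34 h and the high-fat amplitude 0.25 ± 0.06 with a peak at 3.48 ± 0.826 h. The difference curve had a size of 0.39 ± 0.07 and was highest at 4.10 h. The array holds 1 probe set for Emc3, and its suffix marks probes that can match more than 1 transcript.

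The diet differences of Emc3 ran most closely with those of Atxn2, at r = 0.95 over the 6 times. Both were lower on the high-fat diet at ZT12, ZT16 and ZT20 and higher at ZT4 and ZT8. Such a correlation is a description over 6 points from the same mice of genes chosen for a 24 h difference. Over the 12 group means it was 0.68. Of 14 other genes of the complex and of related insertion routes tested, 0 passed for the rhythm difference (5 at an unadjusted p under 0.05). Closest was Camlg, a receptor subunit for tail-anchored proteins, with a curve of 0.27 ± 0.08 that was highest at 5.01 h (adjusted p = 0.132). On average 3 of the 14 fell and 0 rose. They were Camlg by -0.22 ± 0.06 (adjusted p = 0.0100), Emc6 of the same complex by -0.21 ± 0.07 (adjusted p = 0.0485) and Sec61a1, the channel of the main translocon, by -0.15 ± 0.03 (adjusted p = 0.00133).

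Ap1m1 encodes the medium subunit mu1A of the AP-1 adaptor, which sorts cargo into clathrin-coated vesicles between the trans-Golgi network and endosomes. It differed from the other 6 genes in that the control diet had the larger amplitude. Its largest difference lay at ZT8. The control means were 8.82 ± 0.14 (SD, n = 4) at ZT0, 8.83 ± 0.18 at ZT4, 8.41 ± 0.06 at ZT8, 8.85 ± 0.05 at ZT12, 8.91 ± 0.14 at ZT16 and 8.92 ± 0.16 at ZT20. ZT8 stood 0.41 below the next time, and the other steps were smaller than the SD within groups of 0.11. The high-fat means were 8.83 ± 0.05 at ZT0, 8.95 ± 0.12 at ZT4, 8.95 ± 0.05 at ZT8, 8.82 ± 0.07 at ZT12, 8.78 ± 0.10 at ZT16 (n = 3) and 8.67 ± 0.14 at ZT20, with no step above that SD. At ZT8 the high-fat mice had 8.89, 8.93, 8.98 and 8.99 and the control mice 8.35, 8.40, 8.42 and 8.48. The difference was 0.54 ± 0.09 (SE), or 1.45-fold, with no overlap. At ZT20 the high-fat mean was lower by -0.24 ± 0.09 and the groups overlapped. The control amplitude was 0.18 ± 0.04 with a peak at 19.3 ± 0.897 h and the high-fat amplitude 0.13 ± 0.04 with a peak at 6.31 ± 1.25 h. Its difference curve, of 0.31 ± 0.06, was highest at 6.89 h. Of 13 other genes of the AP-1 and clathrin machinery tested, 0 passed for the rhythm difference (1 at an unadjusted p under 0.05, Aftph, which encodes the AP-1 binding protein aftiphilin, with adjusted p = 0.216). The large subunit gene Ap1g1 fell on average by -0.16 ± 0.04 (adjusted p = 0.00544).

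Seen by time, the differences gathered at ZT16, where the diets did not overlap in 6 of the 7 genes, with 4 below and 2 above. ZT16 was also the time at which the diets differed most widely over the array, with no overlap in 29.1% of all genes tested. At ZT12 there was no overlap in 3 of the 7 genes, Atxn2 and Emc3 below and Anpep above, against 7.47% of all genes. At ZT0, ZT4, ZT8 and ZT20 there was 1 gene each, Dixdc1, Car5b, Ap1m1 and Enho, against 9.99%, 5.38%, 9.83% and 6.33% of all genes. These differences are part of the contrast that chose the genes, and nothing is read from the counts. At ZT16 the high-fat group held 3 mice, which makes a lack of overlap easier to reach. The mean of the smooth muscle and pericyte list (4 of 4 measured genes above the level used to keep genes) was lower on the high-fat diet by 0.46 at ZT16, between 8.84 and 9.41 in high-fat and between 8.99 and 10.22 in control mice. At ZT20 it was lower by 0.68, between 8.71 and 9.90 in high-fat and between 9.68 and 10.15 in control mice. The erythroid list (1 of 2 above) was lower by 0.80 at ZT20. It lay between 6.25 and 6.77 in high-fat and between 6.30 and 8.59 in control mice. The diets overlapped in each of these cases. The part of these cells in the values of the 7 genes was not tested.

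**Figure D3:**
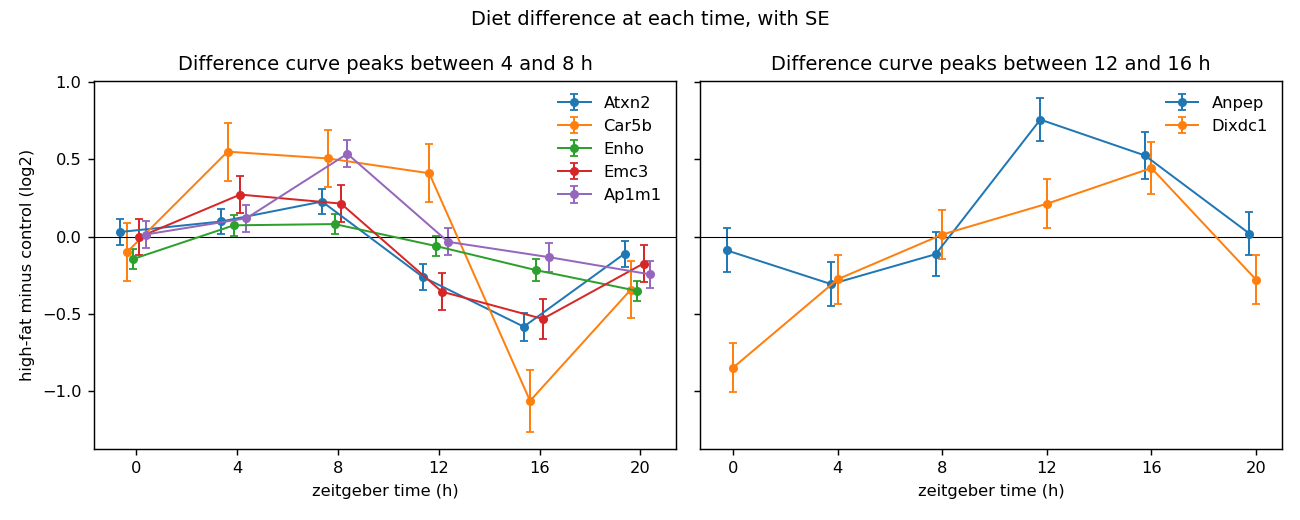
High-fat minus control difference in log2 expression of each gene at 6 zeitgeber times in hours, with standard errors. Straight lines join the differences of a gene. Car5b has the lowest value, -1.06 at ZT16, and Anpep the highest, 0.76 at ZT12.

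Leaving out both diets of a time in turn showed which times the curves rest on. Without the ZT16 mice, 15 genes of the array passed the rhythm difference in place of 216, and 2 of the 7, Enho and Ap1m1, were among them. The fitted curves themselves kept between 70.1% (Car5b) and 109% (Enho) of their size without ZT16. Atxn2 kept 71.4%, Dixdc1 86.1%, Emc3 93.0%, Anpep 105% and Ap1m1 107%. Ap1m1 rested most on a single time, since without ZT8 its curve was 0.18, 60.1% of its size with all times. Anpep had 74.7% without ZT12, Dixdc1 75.2% without ZT0 and Enho 87.6% without ZT20. In each of these 4 cases the gene no longer passed the threshold that had chosen it, with limma adjusted p-values of 0.220, 0.0610, 0.0948 and 0.0623 in that order. The larger amplitude also changed diet in places. It was the control amplitude for Car5b (0.40 against 0.39) and Emc3 (0.25 against 0.16) without ZT4, Anpep (0.26 against 0.11) without ZT12 and Dixdc1 (0.37 against 0.36) without ZT0. For Ap1m1 without ZT8 it was the high-fat amplitude (0.13 against 0.06). Leaving out each of the 47 mice in turn moved the curves less, from 0.31 to 0.35 for Atxn2, from 0.65 to 0.74 for Car5b, from 0.21 to 0.24 for Enho and from 0.45 to 0.51 for Anpep. The ranges were 0.48 to 0.57 for Dixdc1, 0.37 to 0.42 for Emc3 and 0.29 to 0.33 for Ap1m1, and no peak of a curve moved by more than 0.387 h.

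**Figure D4:**
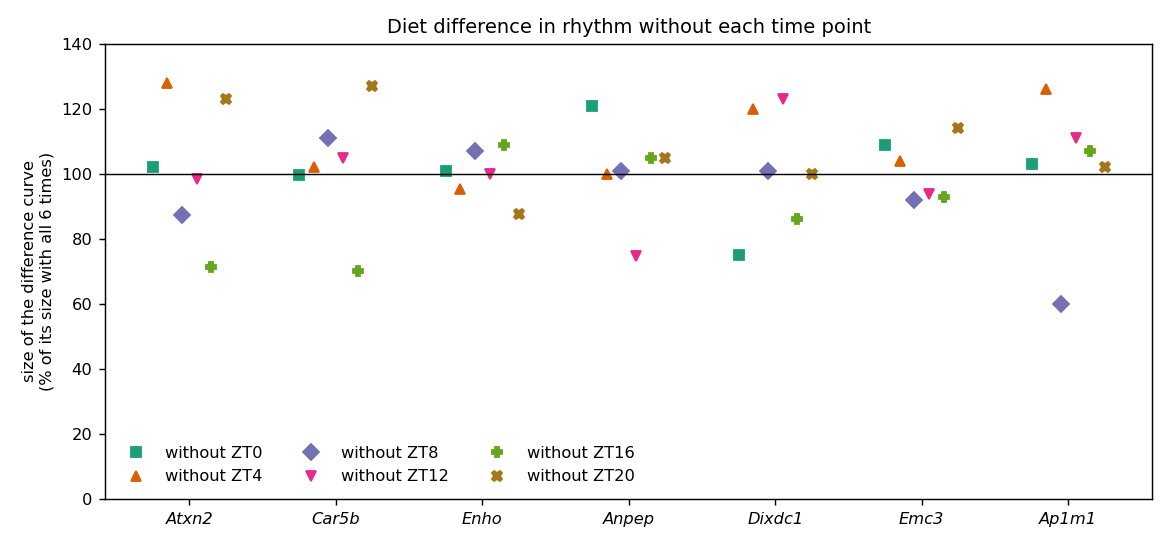
Size of the fitted difference curve of each gene without each zeitgeber time in turn, as a percentage of its size with all 6 times. The lowest value is 60.1%, for Ap1m1 without ZT8, and Car5b and Atxn2 are at 70.1% and 71.4% without ZT16.

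A further 3 tests asked about parts of the data other than the 24 h difference curve. Their contrasts are independent of that curve where groups are of equal size, which holds for all groups but high-fat ZT16. Both the choice and these tests measured the spread between mice of a group, so genes with a small spread may have been favoured. The estimate of spread used in the choice also held the diet by time differences that a 24 h curve leaves over. Genes with small differences of that kind may thus have been favoured too. The first was the average diet difference over the 6 times. Only Enho passed in limma, lower on the high-fat diet by -0.10 ± 0.03 (adjusted p = 0.0116), in a background of 11.5% of genes. Its high-fat mean was lower at 4 of 6 times, and without the ZT20 mice the average was -0.05 and no longer passed (adjusted p = 0.308). Nor did it pass without the ZT16 mice (-0.08, adjusted p = 0.139). The other 3 Enho probe sets had average differences of -0.00 ± 0.04, 0.00 ± 0.02 and 0.05 ± 0.03. Atxn2 lay just short of the threshold with -0.10 ± 0.03 (adjusted p = 0.0554), and it passed without 9 of the 47 mice, each left out in turn, among them the mouse that stood apart (adjusted p = 0.0453). The averages of its 5 probe sets lay between -0.16 and -0.07. Anpep was at 0.13 ± 0.06 (adjusted p = 0.132), Dixdc1 at -0.12 ± 0.07 (0.234), Emc3 at -0.10 ± 0.05 (0.207), Ap1m1 at 0.04 ± 0.04 (0.468) and Car5b at -0.01 ± 0.08 (0.971). Car5b thus had the largest swing over the day and the smallest average difference of the 7.

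The next test took the diet by time differences that a 24 h curve leaves over. In limma 0 of the 7 genes passed, against 6.34% of all genes. At an unadjusted p under 0.05 there were 3 of the 7, against 25.2% of all genes and 34% of the other 209 genes past the threshold of the rhythm difference. The choice may have favoured genes with small differences of this kind, so nothing is read from these counts. The smallest adjusted p-values were those of Atxn2 (0.0928), Car5b (0.0971) and Ap1m1 (0.113), and the largest that of Enho (0.887). The last test asked for a 24 h curve in the mean of both diets, which does not separate time of day from collection day. It passed in limma for 4 of the 7 genes, against 36.1% of all genes. Dixdc1 had a shared amplitude of 0.29 with a peak at 18.3 h (adjusted p = 2.59e-05) and Atxn2 one of 0.13 at 0.599 h (adjusted p = 0.000190). Enho with 0.06 at 4.01 h (adjusted p = 0.0397) and Anpep with 0.12 at 10.1 h (adjusted p = 0.0455) lay close to the threshold, and they no longer passed without 15 (Enho) and 23 (Anpep) of the 47 mice, each left out in turn. Car5b (0.15, adjusted p = 0.0678), Emc3 (0.06, adjusted p = 0.322) and Ap1m1 (0.03, adjusted p = 0.566) did not pass.

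Over the 18 probe sets, each of the 11 not used gave a smaller difference curve than the one used for its gene, which follows in part from the choice of the genes by the latter. Of these 11, 7 peaked within 3 h of it, and 3 of the 18 lay under the level used to keep genes. Emc3, Anpep and Ap1m1 have 1 probe set each and no second measurement on the array.

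**Figure D5:**
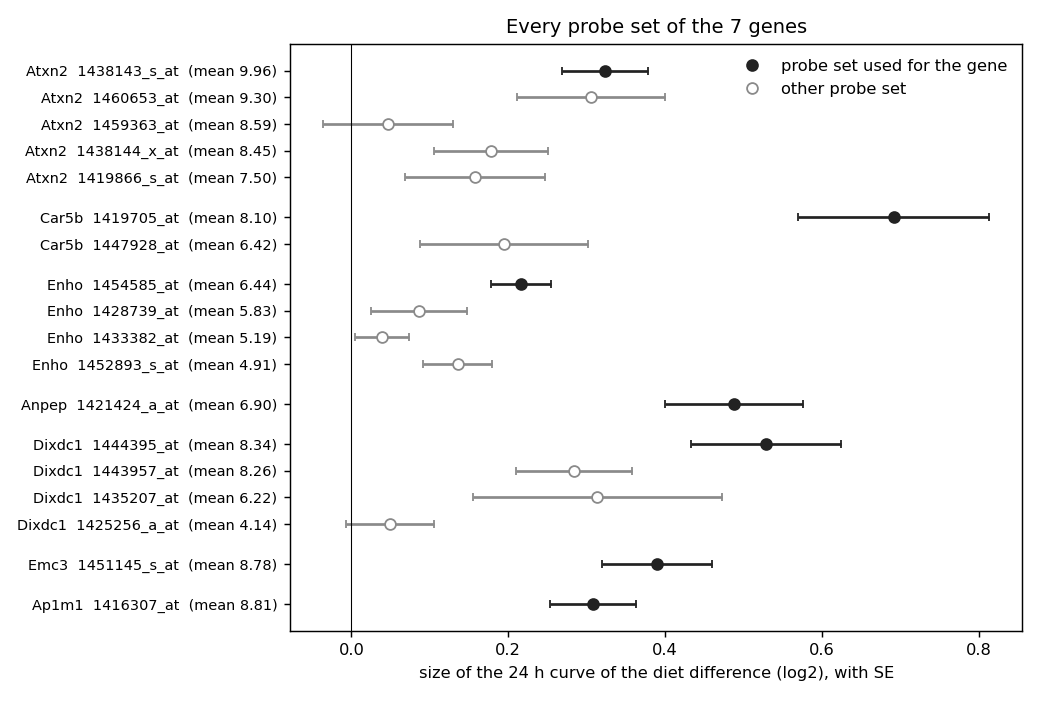
Size of the fitted high-fat minus control difference curve in log2 units with standard errors for each of the 18 probe sets, by gene, with the probe set used for each gene marked. The probe sets not used lie between 0.04 and 0.31, and the largest of them is a Dixdc1 probe set with the widest error.

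For each gene the 3 others most like it over the 12 group means were found by Pearson's r, given as a description, since the points share arrays and days. Atxn2 ran closest with Carmil3 (0.96), Gm14548 (0.93) and Zmym3 (0.89). Car5b ran closest with Esrra (0.85), which encodes the nuclear receptor ERR alpha, Dpp9 (0.85) and Nmnat3 (0.84), an enzyme of mitochondrial NAD synthesis. Esrra held rank 92 for the rhythm difference, with a control peak at 17.0 h and a high-fat peak at 6.33 h, near those of Car5b. Enho ran closest with LTO1 (0.93), Scp2 (0.86), a sterol carrier protein, and Foxred1 (0.86), an assembly factor of respiratory complex I. Anpep ran closest with Sfrp5 (0.92), a secreted Wnt antagonist, Asb3 (0.91) and Klhl9 (0.91). Dixdc1 ran closest with Fgfr1 (0.91), a fibroblast growth factor receptor, Bcl6 (0.89), a transcriptional repressor, and Ntn4 (0.89), a netrin of basement membranes. Fgfr1 had a control peak at 21.1 h and a high-fat peak at 17.0 h but with amplitudes of only 0.06 and 0.08. Emc3 ran closest with Bub3 (0.90), a spindle checkpoint protein, C86187 (0.88) and Praf2 (0.87). Ap1m1 ran closest with Lsm11 (0.87), Arfip1 (0.87) and Ap3s2 (0.84), a subunit of the related AP-3 adaptor.

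The core clock was set beside the 7 genes. Of 17 clock genes tested, 17 passed for the shared rhythm, against 36.1% of all genes. For the rhythm difference 1 passed, against 2.11% of all genes (5 at an unadjusted p under 0.05). That was Bhlhe41, a repressor of the clock loop. Its curve had a size of 0.33 ± 0.07 and was highest at 18.7 h. On average 2 of the 17 fell and 2 rose on the high-fat diet. Arntl, the partner of Clock, fell on average by -0.41 ± 0.14 (adjusted p = 0.0424) and Cry1, a repressor, by -0.24 ± 0.05 (adjusted p = 0.00152). Per2, a repressor, rose by 0.20 ± 0.07 (adjusted p = 0.0457) and Bhlhe40, a relative of Bhlhe41, by 0.20 ± 0.04 (adjusted p = 0.00148). The median size of the difference curve was 0.14 in the clock list, 0.12 over all genes tested and 0.39 in the 7 genes chosen for it.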

How the data were processed

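RNA of muscle stem cells from 47 mice was measured on Affymetrix arrays. Per the labels, cDNA was amplified from 25 ng of RNA over 17 cycles, which can add noise to low genes. The deposited values are log2 expression per probe set, made by the authors with RMA per the submitters' processing notes, with its version and settings not given in the sources used here. RMA equalises the arrays, which makes each difference relative to most other genes and compresses it near background. Arrays have no read depth, and their number limits the precision. Array medians lay between 5.86 and 5.94.

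Of 45141 probe sets 28898 carry 1 gene symbol, 551 several and 15692 none. The probe set with the highest mean was kept for each of 17097 genes, and genes under the 40th percentile (5.80) were left out, leaving 10258. Promoter windows and updated symbols came from RefSeq.

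Tests used R 4.3.3 and limma 3.58.1 (lmFit, eBayes with a trend, two-sided, Benjamini-Hochberg over 10258 genes, threshold 0.05) on all 47 mice. The rhythm difference had time as a 6-level factor, diet, and diet by 24 h cosine and sine. The average, remaining and shared tests were contrasts of the 12 group means, and the models were tested on simulated data. Errors after ± are the SD between mice for the group means at each time, on both diets, and limma's SE elsewhere. Differences are high-fat minus control. Alternatives were other filters, probe sets, normalization, weights and models, and leaving out mice or times.

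The members and gene lists were chosen with earlier results of these data known. Named genes are the members, their neighbours in rank, the 3 genes most like each over the group means, and in each pathway list those with the smallest p of the rhythm difference or past a test. Replicate numbers did not pair the mice (see the replicate block in the closing section).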

Additional observations from a re-analysis of the deposited data

Results flagged for a closer look

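A mouse was set against the others of its group for the 7 genes in 77 groups of 4 mice, and chance marks about 1 group in 20. In 4 groups the gap from the highest or lowest mouse to its nearest neighbour took up more of the group's range than Dixon's 95% critical value. Control ZT4 replicate 3 had a Car5b level of 8.45, with the other 3 mice between 7.83 and 7.91. Control ZT4 replicate 4 had a Dixdc1 level of 8.84, with the others between 8.08 and 8.17. Control ZT16 replicate 1 had a Dixdc1 level of 7.98, with the others between 8.33 and 8.39. High-fat ZT20 replicate 4 had an Emc3 level of 9.08, with the others between 8.58 and 8.61. The difference curves of these genes without each mouse lay within the ranges given in the report.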

How the results depend on the processing

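All 7 genes stayed past the threshold of the rhythm difference when any 1 of the 47 mice was left out (7 to 7). There were 2 past it without ZT16, and 6 without ZT0 (Dixdc1 lost), ZT8 (Ap1m1), ZT12 (Anpep) or ZT20 (Enho). With the probe set of highest variance 4 passed, Car5b, Anpep, Emc3 and Ap1m1, whose probe set stayed the same. Atxn2, Enho and Dixdc1, whose probe set changed, did not pass in limma (adjusted p = 0.530, 0.651 and 0.447). The number with the larger high-fat amplitude, 6 of 7, was 5 without ZT0 or ZT12, 4 without ZT4 and 7 without ZT8, and 6 under the other alternatives run. Of 413 recomputed sizes of the difference curve, 410 moved by less than the SD within groups or not at all. The exceptions were Atxn2 and Enho with the probe set of highest variance and Ap1m1 without ZT8. Leaving out the filter or the trend, or adding the replicate block, could not change these sizes. Dixdc1, with 0.31 in place of 0.53 for the probe set of highest variance, counts among the 410, since its SD was 0.23.

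The number of genes on the array with a rhythm difference, 216, was 92 for the probe set of highest variance, 597 with array weights, 22 with a common cosine, 482 from contrasts of group means, and 362, 134, 15 and 522 without ZT0, ZT8, ZT16 and ZT20. It ranged from 59 (without high-fat ZT16 replicate 3) to 247 without single mice. Leaving out high-fat ZT16 replicate 1 gave 97, control ZT16 replicate 4 gave 121, and control ZT16 replicate 3, control ZT4 replicate 3 or control ZT8 replicate 3 gave 142 each. The number for the average difference was 732 and 586 without ZT0 and ZT16 (968 to 1256 without single mice). That for the remaining difference was 1140 with array weights and 364, 414, 151 and 381 without ZT0, ZT4, ZT16 and ZT20 (477 to 791). The shared rhythm ranged from 3376 to 3710. The cause was not tested.

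Of the 7 genes, those past the threshold for the average difference numbered 0 with the probe set of highest variance and without ZT20, 2 with array weights and without ZT0 or ZT8, and 4 without ZT4 (1 to 2 without single mice, the added gene being Atxn2 in 9 of 47). For the remaining difference they numbered 2 with array weights (0 to 0 without single mice). For the shared rhythm they numbered 2 to 5 without single mice. The average difference turned sign for Dixdc1 (0.068 with the probe set of highest variance, 0.024 without ZT0), Ap1m1 (-0.055 without ZT8) and Car5b (0.0070 with cyclic loess, 0.013, 0.21 and 0.061 without ZT0, ZT16 and ZT20, -0.031 to 0.030 without single mice).

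Replicate numbers are shared between groups, but over 23 pairs of the same number at a time only 1 had a correlation of deviations above 0.1, and 1 mouse correlated best with its own number. With the replicate block the rhythm difference passed for 105 genes and the shared rhythm for 2 of the 7 (Enho adjusted p = 0.0546, Anpep 0.0565).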
